A study of Mus musculus with 10 samples.

Results

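The AP-1 Fos and Jun family comprises 7 genes, Fos, Fosb, Fosl1, Fosl2, Jun, Junb and Jund. They were chosen by name from the 32903 genes to which the deposited transcripts could be assigned, all 7 were present, and all 7 passed the filter on low counts. The family was proposed with its values in BPS and DMSO libraries already known. Those values are therefore given as a description with their errors and without p-values, and "called" means only that the adjusted p of the fit over all 14597 tested genes was under 0.05.

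AP-1 is a transcription factor made of 2 basic leucine zipper proteins. Jun proteins pair with each other or with Fos proteins, whereas Fos proteins need a Jun partner to bind DNA. Fos is the classic immediate early gene, switched on within minutes by growth factors or stress, without new protein synthesis, and switched off again soon after. Its paralogues Fosl1 and Fosl2 (the proteins Fra-1 and Fra-2) respond later and last longer. In the fat lineage, Fos and Egr1 are part of the early response of preadipocytes to adipogenic inducers.

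RNA was sequenced from preadipocytes, the precursors of fat cells, which had been isolated from subcutaneous fat of the inguinal depot; the mice were male, wild-type C57 BL6. The vehicle DMSO was given to the cells of 5 libraries, and BPS (bisphenol S, which replaces bisphenol A in many plastics and shares its pair of phenol rings) at 2.5 µM in DMSO to those of 5 others. The length of exposure, and whether the libraries of a group came from separate mice or separate dishes, are not given in the sources used here, so the errors measure the spread between these libraries, which may be technical. The library codes run through DMSO before BPS, so a batch that followed that order and the treatment cannot be told apart.

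Total estimated counts ran from 37920689 to 42717227 per library. Of 12 preadipocyte markers, all were tested, and their summed level was 36144 to 39491 CPM in DMSO and 34661 to 39882 CPM in BPS. The collagen genes Col1a1 and Col3a1 made up most of that sum, with DMSO means of 21821 and 12706 CPM. Dpp4 and Pi16 were the lowest, at 2.45 and 2.02 CPM. The 6 adipocyte markers together reached 0.0838 to 0.228 CPM in DMSO and 0.0502 to 0.169 CPM in BPS, with Lep at 0 counts in every library, and none passed the count filter. In these bulk libraries, fewer cells of a type and less RNA per cell cannot be told apart.

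Promoter windows of the members were taken from RefSeq (GRCm38.p6), from 250 bases before to 50 bases after each gene's start, and 6 members had one. The windows of Fos, which rose, of Junb and Jun, and of Fosl2 are shown 5′ to 3′ on the gene's strand, because they differ in the short elements through which immediate early genes are known to be induced. They lie at chr12:85473640-85473939 (plus strand) for Fos, chr8:84978699-84978998 (minus strand) for Junb, chr4:95052173-95052472 (minus strand) for Jun and chr5:32136222-32136521 (plus strand) for Fosl2. Capitals mark matches on either strand to the AP-1 site TGANTCA, the cyclic AMP response element TGACGTCA or its core TGACG, the site TGACATCA known from the Jun promoter, the CArG box, the TATA box TATAAA and the CCAAT box.
Fos: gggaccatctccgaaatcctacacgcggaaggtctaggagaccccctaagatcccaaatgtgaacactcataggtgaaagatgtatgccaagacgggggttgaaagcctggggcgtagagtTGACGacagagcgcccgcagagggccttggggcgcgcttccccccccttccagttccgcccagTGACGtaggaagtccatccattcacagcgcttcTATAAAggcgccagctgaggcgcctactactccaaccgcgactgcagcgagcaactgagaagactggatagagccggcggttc
Junb: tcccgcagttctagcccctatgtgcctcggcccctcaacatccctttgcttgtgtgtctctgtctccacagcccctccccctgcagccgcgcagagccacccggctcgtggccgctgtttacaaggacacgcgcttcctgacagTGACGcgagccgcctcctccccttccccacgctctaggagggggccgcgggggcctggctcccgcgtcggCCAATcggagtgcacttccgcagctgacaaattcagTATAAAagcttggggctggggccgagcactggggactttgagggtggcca
Jun: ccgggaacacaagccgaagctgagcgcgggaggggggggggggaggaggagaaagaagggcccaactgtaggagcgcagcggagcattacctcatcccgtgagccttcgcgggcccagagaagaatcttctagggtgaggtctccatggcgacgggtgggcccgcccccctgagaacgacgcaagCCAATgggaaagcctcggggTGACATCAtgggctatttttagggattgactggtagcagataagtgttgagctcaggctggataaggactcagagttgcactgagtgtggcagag
Fosl2: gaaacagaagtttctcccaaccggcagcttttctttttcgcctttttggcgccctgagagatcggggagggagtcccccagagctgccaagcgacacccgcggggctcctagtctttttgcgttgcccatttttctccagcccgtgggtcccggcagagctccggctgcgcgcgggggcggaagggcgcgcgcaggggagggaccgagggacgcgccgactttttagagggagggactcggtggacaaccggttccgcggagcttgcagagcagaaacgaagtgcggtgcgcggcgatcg

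Positions are counted from the start, which is base 1, with negative numbers before it. The Fos window held the core TGACG at -129 to -125 and again at -66 to -62, the latter ahead of a TATA box at -33 to -28. Fosb held 1 core, at -60 to -56. Junb held 1 core at -106 to -102, a CCAAT box at -36 to -32 and TATAAA at 1 to 6. Jun held TGACATCA at -45 to -38 and a CCAAT box at -65 to -61. No match to any of the 7 motifs lay in the windows of Fosl2 and Jund, and none to the AP-1 site, the full response element or the CArG box lay in those of the 6 members. Over all 32851 mouse windows of the same length, 20.8% held TGACG, 3.62% TGACATCA, 13.6% TATAAA, 37.4% CCAAT, 7.81% TGANTCA, 1.79% TGACGTCA and 1.63% a CArG box. These matches describe letters in a window and not binding. Elements more than 250 bases before the start were not searched, so a motif missing here may still lie further upstream.

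**Figure D1:**
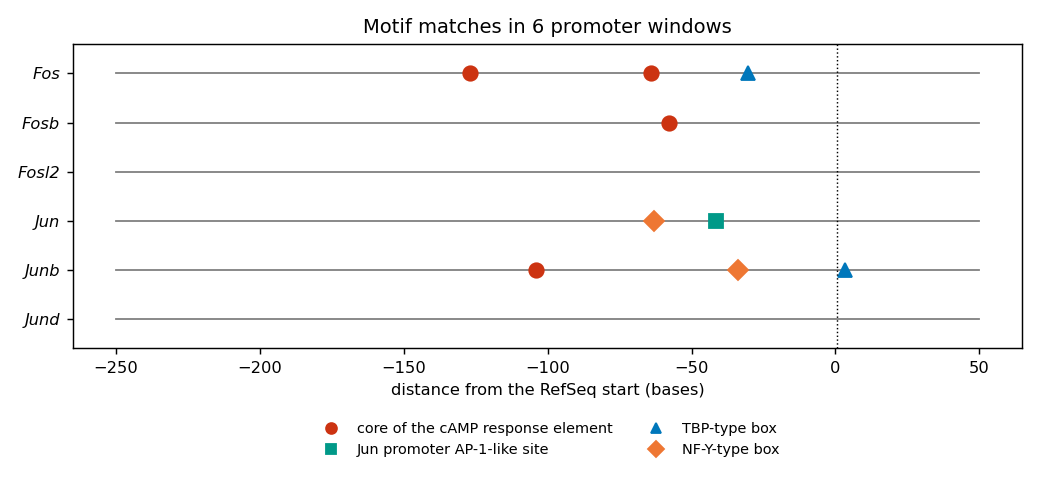
Motif matches in the 6 promoter windows; the horizontal axis is the distance from the RefSeq start in bases, each row is 1 gene, and each symbol is 1 match. The TBP-type box is TATAAA and the NF-Y-type box is the CCAAT box; the Fos row carries 2 TGACG cores and the rows of Fosl2 and Jund are empty.

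Scaled by transcript length (GENCODE M21 lengths, 1668 bases for Jund to 6537 for Fosl2), the members fell into 3 levels in vehicle-treated cells. Jund was highest at 44.8 ± 2.06 CPM per kilobase (SD, n = 5), followed by Fosl2 at 37.0 ± 0.45, Junb at 32.3 ± 0.997 and Jun at 30.7 ± 1.52. The ranges of Junb and Jun overlapped, so their order is not resolved. Fosl1 stood lower, at 10 ± 0.649 CPM per kilobase. Fos, at 0.965 ± 0.138, and Fosb, at 0.246 ± 0.0399, were the least abundant. Fosl2 was thus the most abundant of the 4 Fos genes. Of the 31-base stretches of the Jund transcript, 50.1% also occur in the opposite-strand gene Gm11175. The summed counts of Jund were whole numbers, so no fractional split with another gene showed. Whether reads of Gm11175 were counted as Jund was not tested, so its place is uncertain. The place of Fosl1 is uncertain too, for the reason given with its values. Under BPS the order of the means was the same, but the ranges of Fosl2 (35.2 ± 0.746 CPM per kilobase) and Junb (34.0 ± 1.41) now overlapped.

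**Figure D2:**
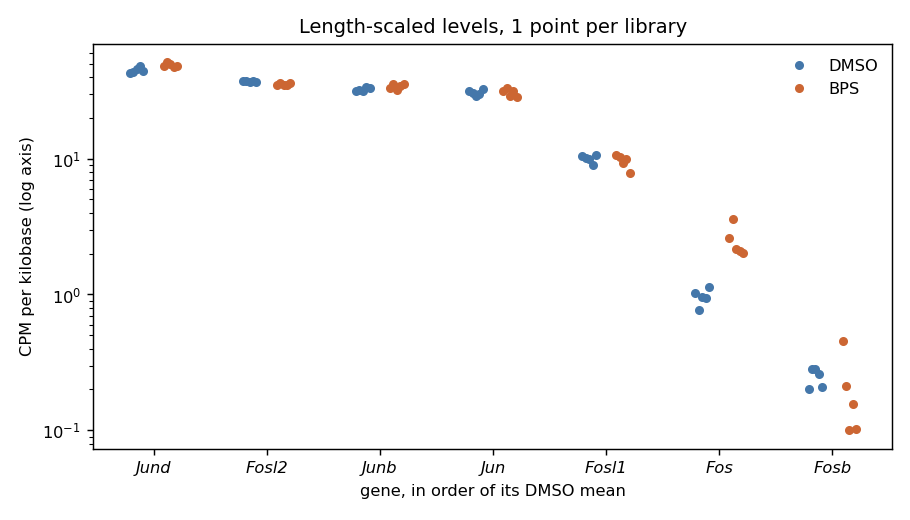
Length-scaled level of each member in each library, in CPM per kilobase on a log axis; blue points are DMSO and orange points BPS libraries, 5 each. Jund, Fosl2, Junb and Jun lie together at the top, and Fos is the member whose BPS points (2.01 to 3.62) lie well above its DMSO points (0.764 to 1.14).

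Fos rose under BPS. Its level was 2.18, 1.61, 2.003, 1.97 and 2.40 CPM in DMSO replicates 1 to 5, and 5.52, 7.64, 4.55, 4.40 and 4.24 CPM in BPS replicates 1 to 5. All 5 BPS libraries lay above all 5 DMSO libraries, with BPS replicate 2 the highest. Behind these values were 63 to 86 counts in each DMSO library and 153 to 266 in each BPS library. The 95% Poisson interval of the lowest BPS library, 3.59 to 4.96 CPM, did not reach that of the highest DMSO library, 1.92 to 2.97 CPM; such intervals cover counting error only. The log2 fold change was 1.37 (SE 0.17, 95% interval 1.0 to 1.75), or 2.59-fold. It was 1.20 without BPS replicate 2 and 1.30 to 1.44 in the 9 fits that left out another library, and Fos was called in each. In exact version matching Fos could not be tested, because the file carries version 2 of its accession and the name table version 3.

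Of the 7 members, 2 were called, Fos higher and Fosl2 lower, and the groups did not overlap in these 2 alone. Over all tested genes 4.88% were called, 3.06% higher and 1.82% lower, and 6.9% did not overlap between the groups. The median log2 fold change of the members was -0.0033, and that of all genes 0.00039. The 7 genes did not share a direction, and Fos had the largest difference among them. Fosl2 was not called without DMSO replicate 1, 2, 3, 4 or 5 or without BPS replicate 1, 3 or 4; 1 member was then called, or, without DMSO replicate 4, Fos and Jund.

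**Figure D3:**
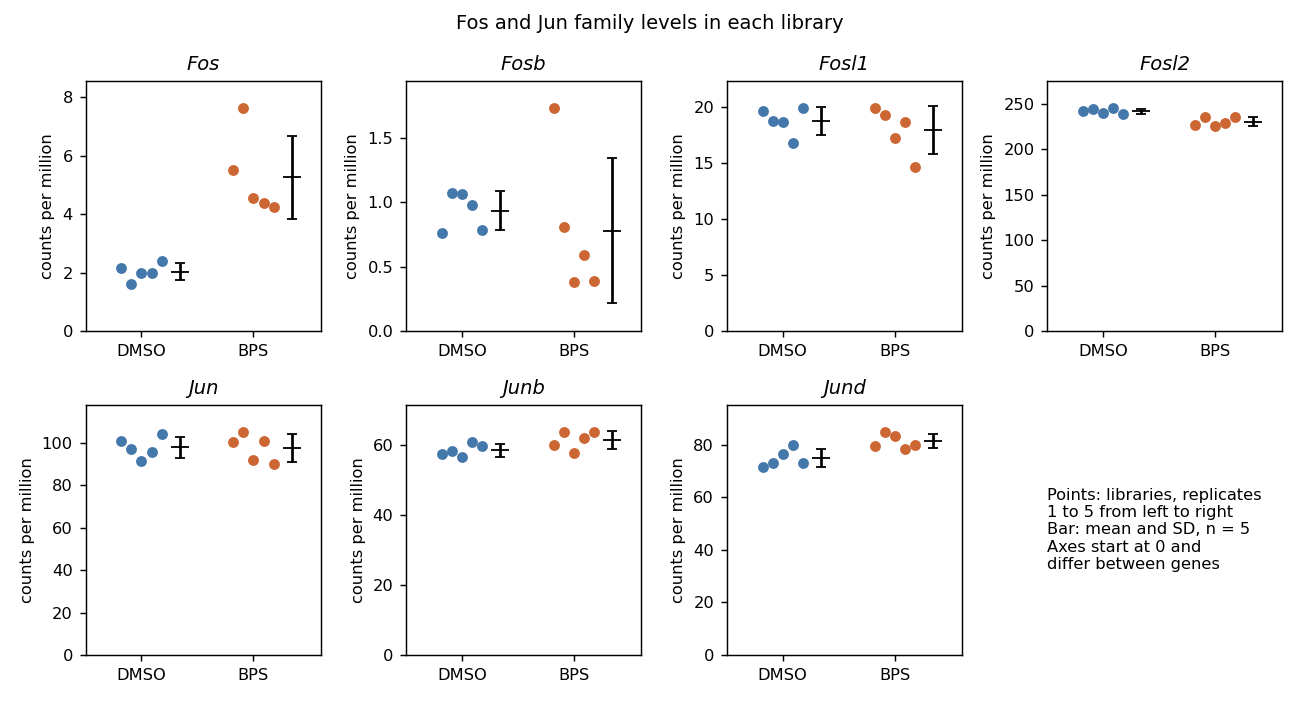
Level of each member in each library, in CPM, with 1 panel per gene and axes that start at 0; points are replicates 1 to 5 from left to right and the bar is the mean with SD (n = 5). Fos is higher in every BPS library, Fosl2 lies slightly lower in every BPS library, and the points of the other 5 genes overlap between the groups.

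Fosl2 encodes Fra-2, the Fos protein with the most transcript in these cells. It stood at 241.6, 244.0, 239.5, 245.5 and 238.5 CPM in DMSO replicates 1 to 5 and at 226.1, 235.2, 226.0, 228.4 and 235.9 CPM in BPS replicates 1 to 5. Every BPS library was below every DMSO library, but the lowest DMSO and the highest BPS values lay close together. The log2 fold change was -0.07 (SE 0.017, 95% interval -0.108 to -0.032), a level 0.952 times that of DMSO. It kept its direction in all 20 alternatives run at gene level but was called in 9 of them, and in 2 of the 10 that left out a library, so the call is not firm.

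Fosl1, which encodes Fra-1, ranged from 16.8 to 19.9 CPM in DMSO and from 14.6 to 19.9 CPM in BPS. The groups overlapped, and the log2 fold change of -0.06 (SE 0.08) had a 95% interval of -0.231 to 0.108. Its estimated counts were fractional. Of the 1834 stretches of 31 bases in its GENCODE transcript, 60.4% also occur in Ccdc85b, a gene on the opposite strand. Whether kallisto was run with strand is not given in the sources used here, so reads of the 2 genes may have been divided between them and the level of Fosl1 is uncertain.

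Fosb encodes the full-length FosB protein and, from a shorter splice form, the truncated ΔFosB, which lacks the transactivation end. Its accession held 27.7, 41.6, 41.6, 36.7 and 27.7 estimated counts in DMSO replicates 1 to 5, and 69.0, 27.7, 13.9, 21.2 and 13.9 in BPS replicates 1 to 5. In 7 of the 10 libraries these were whole multiples of 13.8615, the smallest value, within 0.002. A search of all 107384 transcripts found 1 whose estimated counts add up with those of Fosb to whole numbers in every library, and the next nearest missed by up to 0.15. That transcript has no gene name in the table used and stayed out of the gene counts. Its gene is not named in the tables used here, and whether it is another model of Fosb, whose printed level would then be too low, was not tested.

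The sums of both were 72, 57, 47, 62 and 46 counts in DMSO and 69, 94, 63, 63 and 47 in BPS. The values of the Fosb accession alone were lowest in BPS replicates 3 and 5, whereas the sums ranged alike in both groups apart from BPS replicate 2. With the Fosb accession alone the log2 fold change was -0.25 (SE 0.37, 95% interval -1.05 to 0.56), and with the sum it was 0.29, an alternative chosen after seeing the data. The gene was called in neither, and its direction depended on this choice.

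**Figure D4:**
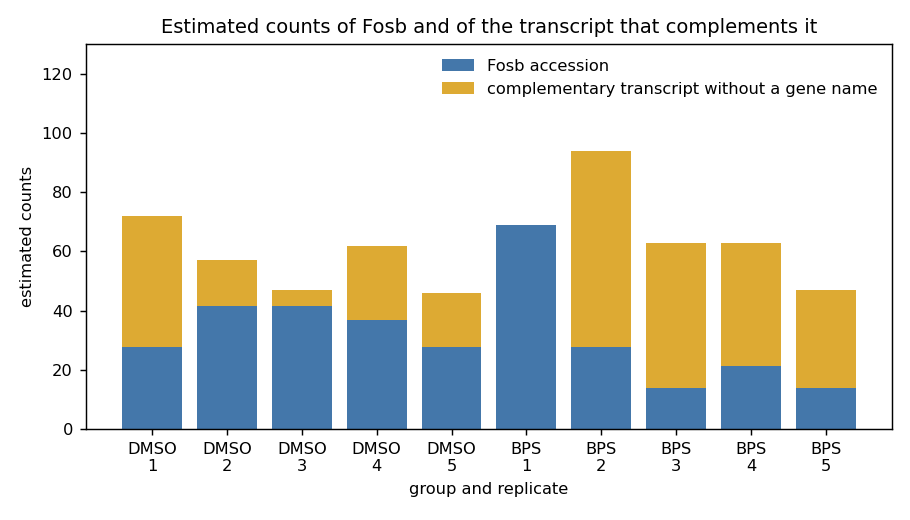
Estimated counts of the Fosb accession (blue) and of the transcript that complements it (yellow), stacked, in each of the 10 libraries. The blue part takes all 69 counts in BPS replicate 1 and 27.7 of 94 in BPS replicate 2, so the split differs between libraries of 1 group.

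Jun, which encodes the founding AP-1 subunit c-Jun, showed no difference beyond the spread. It ran from 91.6 to 104.3 CPM in DMSO and from 89.9 to 105.4 CPM in BPS. Its log2 fold change was -0.0033 (SE 0.046), and the 95% interval of -0.105 to 0.098 leaves room for a change of about that size in either direction. The sign changed in 5 of 20 alternatives. Of its 31-base stretches, 6.39% are shared with the antisense gene Junos.

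Junb, which encodes a Jun protein with weaker transactivation than c-Jun, had 57.2, 58.1, 56.4, 60.9 and 59.6 CPM in DMSO replicates 1 to 5 and 60.0, 63.8, 57.8, 61.9 and 63.6 CPM in BPS replicates 1 to 5. Of the BPS libraries, 3 lay above all DMSO libraries and the others overlapped them. The log2 fold change of 0.07 (SE 0.032, 95% interval 0.002 to 0.14) was not called in any alternative.

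Jund, the Jun gene that many resting cells express steadily, had 71.6, 72.9, 76.5, 80.0 and 73.0 CPM in DMSO replicates 1 to 5. It had 79.7, 85.0, 83.4, 78.5 and 80.0 CPM in BPS replicates 1 to 5. DMSO replicate 4 overlapped the BPS libraries and the other 4 DMSO libraries lay below them. The log2 fold change of 0.12 (SE 0.033, 95% interval 0.047 to 0.193) was not called, and it was called in 2 of 20 alternatives, DESeq2's Wald test and the fit without DMSO replicate 4. Jund was deposited as 2 accessions that carried the same value in all 10 libraries, 50% of the counts each, so they were not told apart. Their sum was a whole number in every library, whereas the counts of Fosl1 were fractional, so no fractional split with another gene showed. As said of its rank, whether reads of Gm11175 were counted as Jund was not tested, and its level is uncertain to that extent.

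In composition, Fos took 2.0 ± 0.281% of the length-scaled level of the 4 Fos genes in DMSO (SD, n = 5) and 5.22 ± 1.2% in BPS. Fosl2 took 76.7 ± 1.3% and 74.1 ± 2.8%, and Fosl1 20.8 ± 1.2% and 20.2 ± 1.93%. Even after its rise, Fos thus remained a small part of the Fos family transcripts. Within the Jun genes, Jund held 41.6 ± 1.51% in DMSO and 43 ± 1.28% in BPS. The length-scaled sum of all 7 members was 156.1 ± 2.44 CPM per kilobase in DMSO and 160.9 ± 5.07 in BPS.

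Whether the members vary together between libraries of 1 group was tested apart from the difference between the group means. The spread among BPS libraries may still include unequal responses to BPS. Deviations of log2 CPM from the group mean were correlated over the 10 libraries for all 21 pairs of members, with exact two-sided permutation within groups (14400 orders). Fosl1 and Jun had the highest correlation (Pearson r = 0.786, exact permutation p = 0.0138, adjusted 0.275; Spearman rho = 0.818, p = 0.0151, adjusted 0.246). Fosl2 and Junb followed (r = 0.758, exact permutation p = 0.0326, adjusted 0.275; rho = 0.77, p = 0.0234, adjusted 0.246), then Fos and Jun (r = 0.707, exact permutation p = 0.0393, adjusted 0.275; rho = 0.624, p = 0.0791, adjusted 0.415). Of the 21 pairs, 0 passed the Benjamini-Hochberg adjustment and 3 had an unadjusted p under 0.05 by Pearson's r. Without the 2 libraries farthest from the median of the first gene, r was 0.822 for Fosl1 and Jun, 0.507 for Fosl2 and Junb and 0.713 for Fos and Jun. In DMSO and in BPS alone, r was 0.6 and 0.87 for Fosl1 and Jun. It was 0.443 and 0.898 for Fosl2 and Junb, and 0.561 and 0.777 for Fos and Jun. In some other pairs the sign differed between the groups, as in Fosb and Jun (-0.856 in DMSO, 0.684 in BPS).

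By the same measure, the 5 genes most like Fos among 12431 ranked genes were Hmga2 (r = 0.931), AI661453 (0.929), Srpr (0.923), Mboat1 (0.915) and Chst2 (0.907), over 10 libraries and as a description only. None of these 5 was called between BPS and DMSO, in contrast to Fos. Egr1 ranked 1338th with r = 0.491, so the library-to-library deviations of these 2 genes were only loosely alike.

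Other basic leucine zipper genes, some of which pair with Fos or Jun proteins, were measured from a list of 20, of which 17 were tested. Of these, 0 were called by edgeR's quasi-likelihood test, 0 by DESeq2 and 0 by limma-voom, and 5 had an unadjusted p under 0.05 by edgeR. Their median log2 fold change was 0.0141. Atf3, itself a stress-induced early gene that pairs with Jun proteins, averaged 0.957 ± 0.16 CPM with vehicle and 1.04 ± 0.238 CPM with BPS (n = 5, SD; edgeR, adjusted p = 0.789).

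Genes that act upstream of Fos and Jun or on their proteins were taken from a list of 32, all tested, and 2 were called higher and 0 lower, with a median log2 fold change of 0.00985. Srf, the serum response factor that occupies the Fos promoter, rose; it averaged 62.8 ± 1.26 CPM with vehicle and 69.2 ± 2.92 CPM with BPS (n = 5, SD), or 0.14 ± 0.029 on the log2 scale (SE; edgeR, adjusted p = 0.0191). It was higher in 5 of 5 BPS libraries than in any DMSO library, and it was called in 19 of 20 alternatives, with adjusted p of 0.00147 to 0.684; exact version matching ended the call and lowered the log2 difference to 0.065. Mef2a, a factor with a related DNA-binding domain, differed by 0.16 ± 0.041 on the log2 scale (SE; edgeR, adjusted p = 0.0431), and was called in 8 of 20 alternatives. In fits without DMSO replicate 1, 2 or 4, or without any 1 BPS replicate, Srf alone was called. Transcripts of the kinase Mapk3 (log2 fold change 0.01, SE 0.018) and of the Srf partner Elk1 (-0.03, SE 0.032) were not called (adjusted p 0.831 and 0.658 by edgeR). Kinase activity is set by phosphorylation, which these data do not measure.

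Of 26 other immediate early genes, 25 were tested, and 12 were called higher and 1 lower, with a median log2 fold change of 0.181. The groups did not overlap in 12 of the 25. Egr1, a zinc finger factor induced through the same signals as Fos, rose; it averaged 28.4 ± 3.34 CPM with vehicle and 59.8 ± 6.93 CPM with BPS (n = 5, SD), or 1.08 ± 0.091 on the log2 scale (SE; edgeR, adjusted p = 5.69e-05). Zfp36, which encodes a protein that destabilises short-lived mRNAs, was higher by 0.37 ± 0.03 (edgeR, adjusted p = 4.97e-05), and Ier2 by 0.41 ± 0.04 (adjusted p = 0.000155), both log2 with SE. The matricellular genes Ccn2 and Ccn1 were higher by 0.31 ± 0.025 (edgeR, adjusted p = 4.18e-05) and 0.18 ± 0.019 (adjusted p = 0.000273). Dusp1, a phosphatase that shuts off MAP kinases, was higher by 0.36 ± 0.059 (edgeR, adjusted p = 0.0051). Each of these 6 genes was higher in 5 of 5 BPS libraries than in any DMSO library, and each was called in 20 of 20 alternatives. Ier3, named because it alone was called lower, differed by -0.34 ± 0.053 (edgeR, adjusted p = 0.00406). Fos and Egr1 were the only called genes among these 25 and the 7 members with a log2 fold change over 1. The number called was 10 to 14 over the alternatives, and 11 to 13 when single libraries were left out.

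**Figure D5:**
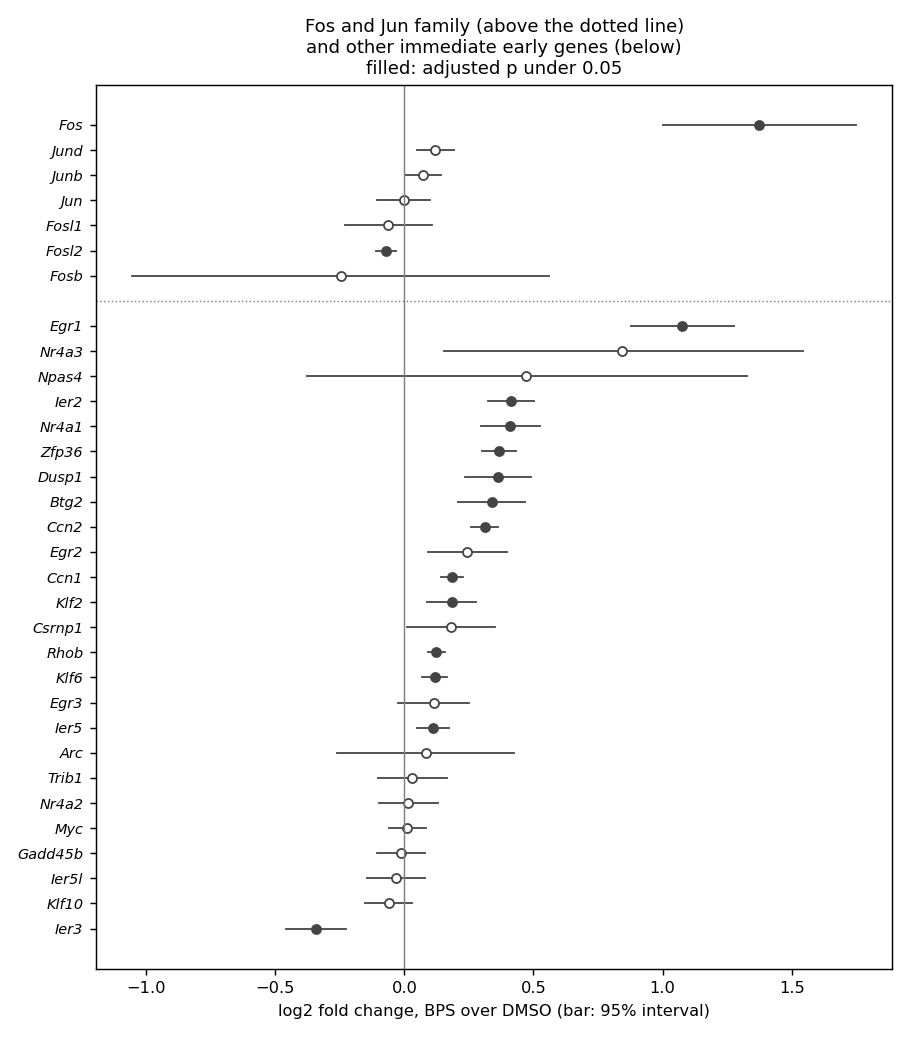
Log2 fold change of BPS over DMSO with its 95% interval for the 7 members (above the dotted line) and 25 other immediate early genes (below); filled points were called at an adjusted p under 0.05. Fos and Egr1 lie furthest to the right among the called genes, most other family members lie near 0, and Ier3 lies to the left at -0.34.

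Textbook AP-1 targets were called in both directions. Of 30 such genes, 29 were tested, and 4 were called higher and 3 lower, with a median log2 fold change of 0.0467. Mmp3, the collagenase-activating stromelysin, fell; it averaged 338.2 ± 16 CPM with vehicle and 235.0 ± 8.75 CPM with BPS (n = 5, SD), or -0.53 ± 0.034 on the log2 scale (SE; edgeR, adjusted p = 1.42e-05). All 5 BPS libraries were below all 5 DMSO libraries. Among the higher genes were Ezr, which links actin to the membrane (log2 difference 0.17 ± 0.032; edgeR, adjusted p = 0.0103), the cytokine Lif (0.26 ± 0.054, adjusted p = 0.0202) and the cell cycle gene Ccnd1 (0.21 ± 0.044, adjusted p = 0.0214). The other 2 called lower were the metallothioneins Mt1 (-0.15 ± 0.034; edgeR, adjusted p = 0.0291) and Mt2 (-0.16 ± 0.038, adjusted p = 0.0383), named because the count is small. Mmp3 and Ezr were called in 20 of 20 alternatives, Lif in 16 and Ccnd1 in 14 of 19; Mt1 and Mt2 were called in 12 of 20 each, and both lost the call without DMSO replicate 2, 3, 4 or 5 or BPS replicate 3, 4 or 5. The number called fell to 3 without DMSO replicate 4 or without BPS replicate 4, and to 4 without DMSO replicate 2 or 3.

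Handling, stress and other cell types can also move Fos, and their markers are given beside it; their part in its rise was not tested. Of 12 heat shock genes, 1 was called, Hspa1b, whose reads its near-identical copy Hspa1a may share and which averaged 32.9 ± 1.52 CPM with vehicle and 39.0 ± 2.06 CPM with BPS (n = 5, SD; log2 difference 0.25 ± 0.042, SE; edgeR, adjusted p = 0.00648), and the list's median was 0.00891. Of these 12, 4 had an unadjusted p under 0.05 by edgeR, all higher: Hspa1b, Hspb1, Hspa1a and Hspd1. Of 8 mural markers, all 8 were higher and 3 were called, Acta2, Des and Cspg4 (Cspg4 in 6 of 20 alternatives), and the list's summed level was 1067 to 1143 CPM in DMSO and 1378 to 1482 CPM in BPS. Acta2 made up most of that sum; the other 7 markers together ran from 70.8 to 77.9 CPM in DMSO and from 84.5 to 93 CPM in BPS. Of 7 endothelial and 6 tested macrophage markers 0 were called by edgeR, 0 by DESeq2 and 0 had an unadjusted p under 0.05 by edgeR. The summed macrophage markers ran from 11.4 to 18.2 CPM in DMSO and 12.4 to 20.9 CPM in BPS, with Csf1r at 0 counts, and the endothelial ones from 18.2 to 24.4 and 17.8 to 23.8 CPM. Of the mesothelial markers, Msln and Upk3b were at 0 counts, and 2 were tested, with opposite signs. Krt19 was called higher (log2 difference 0.27 ± 0.065, SE; edgeR, adjusted p = 0.0367; 11 of 20 alternatives), and Wt1 was not called (-0.59 ± 0.216, adjusted p = 0.155). The mesothelial sum ran from 9.06 to 11 CPM in DMSO and 11 to 12.9 CPM in BPS. Krt19 made up most of that sum, with means of 9.34 CPM in DMSO and 11.2 CPM in BPS, whereas Wt1 averaged 0.849 and 0.569 CPM. Of the 12 preadipocyte markers, 2 were called, both higher, Cd34 and Thy1 (0.28 ± 0.031 and 0.19 ± 0.025, SE); 7 of the 12 had a positive log2 difference, and the list's median was 0.00348.

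BPS replicate 2 was the highest BPS library for 4 of the 7 members, Fos, Jun, Junb and Jund, and for 9 of the 25 other early genes. It also had the smallest total of all libraries. Among the DMSO libraries, replicate 5 was the highest for Fos, Fosl1 and Jun and for 10 of the 25 other early genes. Without BPS replicate 2, 2 of the 7 members were called, Fos and Fosl2. Without DMSO replicate 5, 1 was called, Fos.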

How the data were processed

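The deposited table holds estimated counts of 107384 transcripts (RefSeq accessions) in each library, which the authors made with kallisto 0.42.4 per the submitters' processing notes; the index, build and strand setting are not given in the sources used here. Libraries were made with a directional kit per the labels' protocols. Accessions were matched without version to RefSeq names (GRCm38.p6): 86722 transcripts fell into 32903 genes and held 93.1% of the counts. The counts were summed per gene and rounded. filterByExpr left 14597 genes, TMM factors ran from 0.9854 to 1.008, and edgeR's quasi-likelihood test compared BPS with DMSO, no covariate being used; p-values were adjusted by Benjamini and Hochberg's method across the tested genes. CPM use TMM-scaled totals. Each SE is the log2 value without shrinkage, divided by the root of F. Between replicates the chi-square over its degrees of freedom was 4.13 to 8.77, above sampling noise, and no library was counted as a duplicate. Length scaling and shared 31-base stretches used GENCODE M21 transcripts. In simulated BPS and DMSO counts for 14485 tested genes, 76% of seeded log2 changes of 0.3 and 100% of those of 0.6 were recovered, and 6% of calls were not seeded. Changes were seeded only in genes above a minimum mean CPM, which Fosb did not reach, and every gene was given the same dispersion. These rates therefore do not cover fainter or noisier genes.

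The members and lists were chosen with earlier results of these data known. Named genes were the 7 members, up to 5 called genes of each list with the smallest p, 10 genes fixed by name and the 5 genes most like Fos; 2 genes the rule named are not reported here. Alternatives were DESeq2 size factors, library size alone, upper-quartile scaling, 2 filters, DESeq2's Wald test, limma-voom, a replicate block, exact version matching, transcripts without summing and leaving out each library; adding a transcript to Fosb was chosen after seeing the data. The tools were edgeR (4.0.16), DESeq2 (1.42.0) and limma (3.58.1) in R (4.3.3), with numpy (2.4.6), pandas (2.3.3) and scipy (1.17.1) in Python (3.11.15).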

Additional observations from a re-analysis of the deposited data

Results flagged for a closer look

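Dixon's gap test (95% level) was run on 58 groups of 5 libraries and marked 1 library in 7 of them, where chance would mark about 2.9; 0 of the 14 groups of family members were among them. BPS replicate 2 was the library apart in 3 of the 7, high each time: Ccn2 stood at 673.1 CPM against 626.5 to 631.1 in the other BPS libraries, Dusp1 at 17.58 against 15.11 to 15.67 and Cspg4 at 48.14 against 41.73 to 43.09. The same library had the highest Fos, at 7.64 CPM. BPS replicate 1 was high in Des, at 24.5 CPM against 19.69 to 20.72, and low in Lif, at 11.13 against 11.82 to 12.06. DMSO replicate 1 was low in Ccn1, at 381.8 CPM against 398.2 to 403.4. DMSO replicate 3 was low in Cd34, at 42.54 CPM against 45.57 to 46.51.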

How the results depend on the processing

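Fos kept its direction and its call in all 19 gene-level alternatives in which it could be tested, with log2 fold changes of 1.20 to 1.44, and Fosl2 kept its direction in 20 of 20 but its call in 9. Of the 7 members, 2 were called; upper-quartile scaling, no filter and the replicate block gave 1 each (Fos), exact version matching 1 (Fosl2, Fos not being testable), and fits without 1 library 1 to 2. Fosb changed direction in 1 alternative, Fosl1 in 1 and Jun in 5, and none of the 3 was called in any. Over all genes 712 were called, 374 with the replicate block, 328 with exact version matching, and 449 to 774 without 1 library; the 4 that moved the count by over 1.5 times were DMSO replicate 2 (449) and, of the BPS libraries, replicate 2 (462), replicate 3 (465) and replicate 4 (462). With library size alone 728 were called, 334 higher and 394 lower, against 447 and 265 with TMM. Whether the replicate numbers pair DMSO with BPS libraries is not given in the sources used here. Same-numbered libraries deviated together with correlations of -0.078 to 0.1, and not every library correlated best with its own number. With so few libraries, these weak correlations do not settle whether they were paired. Other early genes called were 11 to 13 without 1 library, bZIP partners 0 to 1, heat shock genes 1 in each, AP-1 targets 3 to 8, and 3 with exact version matching. Upstream genes called were 2, but 1 with library size alone, 1 with the block, 0 with exact version matching and 1 to 2 without 1 library. Exact matching tests fewer genes and assigned 72.1% of the counts to genes, against 93.1% without version. It also changed values of genes that stayed tested, as in Srf, whose log2 difference was 0.065 against 0.14 as reported. For the other shifts the cause was not tested. Levels in DMSO moved by less than 1 SD in the alternatives run. Fos had 63 to 86 counts per DMSO library and Fosb fewer, which limits both.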
